A study of Mus musculus with 29 samples.

Results

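The 7 genes Irf1, Irf2, Irf3, Irf4, Irf5, Irf7 and Irf9 encode interferon regulatory factors other than IRF8, the factor mapped in the study. They were followed among 21911 protein-coding genes through 25 lists of enriched regions from CUT&RUN, an assay that sequences the DNA fragments which an antibody-guided nuclease cuts out around a protein of interest. A region was assigned to a gene when it overlapped the gene body or the 20 kb on either side (mouse genome GRCm38, GENCODE vM21 annotation), and 694 of the 1008854 regions summed over the 25 lists fell at these genes. All mice were female, and microglia, the resident macrophages of the brain, were obtained by cell sorting. IRF8 libraries were made with a GFP antibody from mice of the IRF8-EGFP strain: 4 from microglia of postnatal day 9 (P9), 3 from postnatal day 14 (P14), 3 from adult microglia and 3 from peritoneal macrophages. For PU.1, a partner factor of IRF8, and for the chromatin marks H3K4me1 and H3K27ac there were 2 libraries each from adult microglia of the WT strain and 2 from the IRF8KO strain. The stages are those of the sample titles. The protocol text attached to every library, P9 and P14 included, speaks of 3-month-old brains instead. The labels give no zygosity of the EGFP fusion and no further description of the knockout allele, and they do not say whether libraries came from separate animals, so the spread between libraries may be technical.

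Interferon regulatory factors share a DNA-binding domain that recognises repeats of the sequence GAAA. IRF3, IRF5 and IRF7 are held in the cytoplasm until sensors of microbial nucleic acids or Toll-like receptors activate them, after which they switch on type I interferon and inflammatory genes. IRF9 is the DNA-binding part of the complex that carries the interferon signal to the nucleus, IRF1 is an interferon-induced activator, IRF2 competes with it at shared sites, and IRF4, the closest relative of IRF8, binds composite sites together with PU.1 as IRF8 does. H3K4me1 marks enhancers and H3K27ac marks active enhancers and promoters.

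The lists differed in length far more than the libraries differed in depth, which bears on each count below. P9 libraries listed 1168 to 2068 distinct IRF8 regions from 13.4 to 20.9 M fragments (M, mega), P14 libraries 7931 to 19243 from 13.9 to 24.4 M, adult libraries 17048 to 29667 from 7.25 to 24.7 M and peritoneal macrophage libraries 9788 to 23163 from 15.8 to 21.5 M. Each stage and tissue was called against its own IgG control library, so stage or tissue and control cannot be told apart. In adult WT microglia 6 of 6 microglial marker genes and 0 of 3 neuronal marker genes had an H3K27ac region found in both libraries, beside 2 of 3 oligodendrocyte and 1 of 3 astrocyte genes. For IRF8, 4 of 4 peritoneal macrophage marker genes had a region in the macrophages and 2 of 4 in adult microglia, and the part of other cells in the results below was not tested.

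Merged over the 13 IRF8 lists, the 7 genes held 57 sites, and 13 of these were present in at least 7 lists. That is 22.8% of the sites at these genes, beside 7.33% of all 67562 IRF8 sites. Microglia and peritoneal macrophage lists shared 26 of the 57 (45.6%, all: 21.3%), and 22 were in 1 list alone (38.6%, all: 60.7%). The sequences below show the letters found nearest to the strongest summit at the 8 recurrent sites that matched, within 200 bp of it and on either strand, GGAA-NN-GAAA (the composite site of an ETS factor such as PU.1 and an IRF) or GAAA-NN-GAAA (the core letters of an interferon-response element), together with the Irf2 promoter, which has both. They are read from GRCm38.p6 on the strand that carries the motif in this orientation, with the matches in capitals, and are cut to 30 bases where an exon is annotated.
Irf5, 1.91 kb upstream, chr6:29524170-29524259, minus strand: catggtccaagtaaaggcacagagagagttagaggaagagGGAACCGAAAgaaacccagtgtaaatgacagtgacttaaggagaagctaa
Irf5, 2.73 kb downstream, chr6:29529159-29529248, minus strand: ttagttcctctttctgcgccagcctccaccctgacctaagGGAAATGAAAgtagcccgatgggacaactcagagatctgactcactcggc
Irf5, 10.3 kb downstream, chr6:29536931-29536960, minus strand: aatgtttaggGGAAATGAAAcctcaggcct
Irf9, 12.2 kb upstream, chr14:55590927-55590956, minus strand: cctggagagtGAAAGCGAAAgctggggctg
Irf2, 38.8 kb downstream, chr8:46778178-46778267, minus strand: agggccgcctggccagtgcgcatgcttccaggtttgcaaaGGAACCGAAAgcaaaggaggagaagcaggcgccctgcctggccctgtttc
Irf2, 50.01 kb downstream, chr8:46789557-46789646, minus strand: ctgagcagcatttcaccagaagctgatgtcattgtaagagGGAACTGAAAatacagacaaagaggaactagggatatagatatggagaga
Irf2, 104 kb downstream, chr8:46842895-46842984, minus strand: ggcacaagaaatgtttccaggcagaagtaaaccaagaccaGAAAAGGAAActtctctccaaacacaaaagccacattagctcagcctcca
Irf4, 10.7 kb upstream, chr13:30738436-30738525, minus strand: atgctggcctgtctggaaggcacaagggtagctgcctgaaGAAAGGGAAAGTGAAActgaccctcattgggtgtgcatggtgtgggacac
Irf2 promoter, chr8:46739494-46739523, plus strand: gtggGGAAGTGAAAATGAAAttgacttttc
The distances are from the gene's start site to the centre of the site in the direction of transcription. A motif of either kind lay within 200 bp of the strongest summit at 8 of 13 recurrent sites of these genes, beside 27.5% of all 4949 recurrent IRF8 sites. The composite letters were found at 5 of them (all: 19.9%) and the interferon-response letters at 3 (all: 9.94%). The site 10.7 kb upstream of Irf4 carried 2 overlapping interferon-response matches, and in the Irf2 promoter a composite and an interferon-response match overlapped. A match is a description of the letters, not evidence of a bound site.

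**Figure D1:**
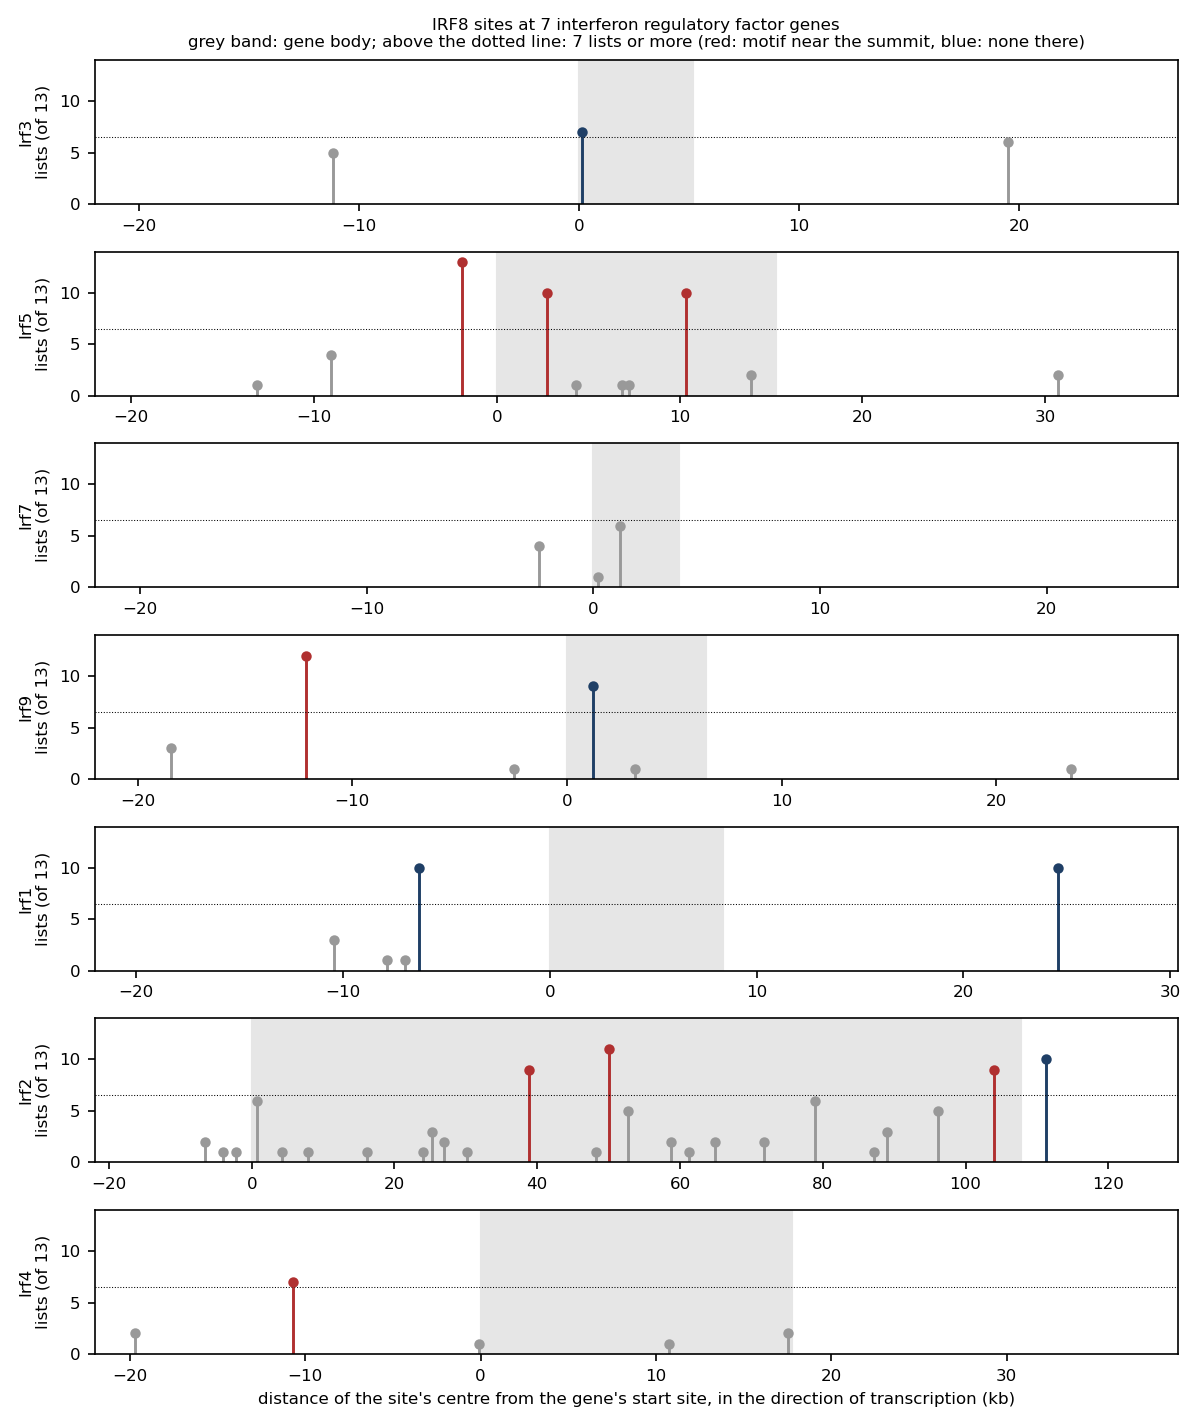
IRF8 sites at the 7 genes. Each stem is 1 merged site at its distance from the gene's start site (x axis, kb), and its height is the number of the 13 IRF8 lists that hold it; the 13 sites above the dotted line are in at least 7 lists, and the Irf5 site 1.91 kb upstream is in all 13.

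Irf5, which carries Toll-like receptor signals to inflammatory cytokine genes, had the most widely shared site. Its gene (chr6:29526625-29541871, plus strand) held 2, 1, 2 and 2 IRF8 regions in the P9 libraries, 4, 3 and 3 at P14, 4, 5 and 5 in adults and 6, 5 and 4 in peritoneal macrophages. The site at chr6:29522534-29526898, centred 1.91 kb upstream and reaching over the annotated start, was listed in all 13 libraries. Its fold enrichment over control, the authors' value for the strongest peak in the site, was 8.45, 15.4, 11.4 and 11.7 at P9, 25.8, 35.05 and 17.0 at P14, 47.1, 21.3 and 17.9 in adults and 18.6, 13.8 and 7.21 in peritoneal macrophages. Within the adult lists it stood at the 99.9th, 99.8th and 99.6th percentile of the authors' −log10 p, the highest mean among adult regions at these genes, and within the P9 lists at the 88.7th to 98.4th. In the printed stretch the composite match lay 93 bp from the strongest summit. The other recurrent sites of Irf5, inside the gene, were each in 10 lists, and the one 2.73 kb downstream covers a further annotated Irf5 start. PU.1 lay over the upstream site in adult WT microglia (16.4 and 10.3-fold) and IRF8KO microglia (8.52 and 12.1-fold), and over the site 2.73 kb downstream (12.9 and 7.24-fold in WT, 10.03 and 5.74-fold in IRF8KO), but not over the site 10.3 kb downstream. PU.1 libraries of the same replicate number share a control and a q-value threshold between the genotypes. They differ in depth, with 8.95 M fragments in WT and 13.6 M in IRF8KO for replicate 1. For replicate 2 these were 17.3 M and 13.3 M, and the part of depth in the fold values was not tested. In these same-numbered pairs the fold at the site 2.73 kb downstream was lower in IRF8KO both times. At the upstream site it was lower in replicate 1 and higher in replicate 2.

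Irf3, a constitutively expressed factor activated downstream of STING and MAVS, lies on chr7:44997648-45002848. It held 0, 1, 0 and 0 IRF8 regions at P9, 2, 3 and 1 at P14, 3, 3 and 2 in adults and 2, 1 and 1 in peritoneal macrophages. Its recurrent site (chr7:44997286-44998245, 7 lists) covers the start sites of Irf3 and of Bcl2l12, so a region there cannot be given to either gene. That site was enriched 6.66 and 10.1-fold in 2 P14 libraries, 11.9 and 7.58-fold in 2 adult libraries and 4.87, 4.00 and 7.62-fold in the macrophages, and was listed in 0 of 4 P9 libraries. PU.1 lay over it with 6.05 and 5.85-fold enrichment in WT and 5.86 and 5.84-fold in IRF8KO microglia. No composite or interferon-response letters lay near its strongest summit.

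Irf7, the interferon-inducible amplifier of type I interferon production (chr7:141262706-141266481, minus strand), was the gene with no IRF8 region in any P9 library. It held 1 region in each P14 library, 2, 1 and 1 in adults and 2, 2 and 0 in peritoneal macrophages. The site inside the gene (chr7:141264668-141265955), over an annotated Irf7 start, was enriched 12.4, 9.78 and 7.62-fold in adults, 3.55 and 5.85-fold in 2 P14 libraries and 3.67-fold in 1 macrophage library. It was present in 6 lists and so fell just under the 7 lists used here for recurrence. PU.1 was listed over that site in WT replicate 1 alone (9.08-fold), and a second PU.1 region upstream, at chr7:141268591-141269354, was listed in WT replicate 1 and in both IRF8KO libraries (4.48, 5.49 and 4.97-fold).

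Irf9, which encodes the DNA-binding subunit of the interferon-activated complex (chr14:55603571-55610030, plus strand), held 2, 1, 1 and 1 IRF8 regions at P9, 2, 2 and 1 at P14, 2, 3 and 3 in adults and 3, 5 and 1 in peritoneal macrophages. Its most shared site, in 12 lists (chr14:55590346-55592440), covers the start sites of Psme2 and Rnf31, 12.2 kb upstream of the Irf9 start, and the interferon-response match printed above lay 89 bp from its strongest summit. This site was enriched 5.88, 5.74 and 8.02-fold in 3 P9 libraries, 8.17, 9.66 and 6.81-fold at P14, 17.6, 16.9 and 7.62-fold in adults and 7.37, 6.04 and 3.03-fold in the macrophages. The Irf9 promoter site (chr14:55603779-55605820) was in 9 lists, with 16.1, 16.4 and 9.38-fold enrichment in adults. PU.1 lay over the Psme2 and Rnf31 site (20.5 and 8.83-fold in WT, 12.8 and 6.35-fold in IRF8KO) and not over the Irf9 promoter, where no PU.1 region was listed in any of the 4 libraries.

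Irf1 (chr11:53770014-53778374, plus strand) held 1, 0, 2 and 0 IRF8 regions at P9, 2, 3 and 2 at P14, 2, 3 and 3 in adults and 2, 3 and 2 in peritoneal macrophages. None of its 5 sites covered its start. Both recurrent sites flank the gene, 6.33 kb upstream (chr11:53763132-53764238) and 24.6 kb downstream in an intron of Gm12216 (chr11:53793762-53795453), and each was in 10 lists. The downstream site was enriched 4.68-fold in 1 P9 library, 6.45, 8.67 and 4.10-fold at P14, 10.4, 6.86 and 9.97-fold in adults and 5.43, 5.20 and 5.37-fold in the macrophages. PU.1 lay over both sites in all 4 libraries, with 5.37 and 4.83-fold in WT against 5.92 and 4.21-fold in IRF8KO upstream, and 10.7 and 7.59-fold against 13.9 and 8.31-fold downstream. In same-numbered libraries the downstream value was higher in IRF8KO both times, and the upstream value was higher in replicate 1 and lower in replicate 2. RefSeq promoters (GRCm38.p6) were matched for all 7 genes. TTCNNNGAA, the letters of a STAT site, were found in 1 of 2 promoters of Irf1 and in that of Irf2, and in 8.30% of all 32851 promoters. The composite letters (all: 2.72%) and the interferon-response letters (all: 3.44%) were found in the Irf2 promoter, printed above, and the promoters of the other 5 genes held none of the 3 motifs.

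Irf2, the repressor that opposes IRF1, spans chr8:46739732-46847458 and with its flanks has the longest window, 147.7 kb against 43.8 to 57.8 kb for the others, so its counts are not comparable with theirs. It held 2, 0, 3 and 1 IRF8 regions at P9, 4, 9 and 4 at P14, 10, 14 and 8 in adults and 19, 15 and 7 in peritoneal macrophages. Its 25 sites included 4 recurrent ones, 3 in introns and 1 beyond the gene end, and the site 50.01 kb into the gene (chr8:46788576-46790904) was in 11 lists. There the fold enrichment was 3.43 and 4.10 in 2 P9 libraries, 11.6, 16.5 and 9.45 at P14, 21.6, 21.3 and 13.7 in adults and 10.8, 5.998 and 4.997 in the macrophages, and the composite match lay 162 bp from the strongest summit. PU.1 was enriched there 26.7 and 16.7-fold in WT and 12.4 and 10.1-fold in IRF8KO microglia, lower in both same-numbered pairs. With 2 libraries each the smallest exact p is 0.333, and no test was made. Of the 12 PU.1 sites of the 7 genes that all 4 libraries listed, 5 were lower in IRF8KO in both pairs (all 2824 such sites: 32.5%), 2 higher in both (22.4%) and 5 lower in 1 pair only (45.1%). In peritoneal macrophages 15 Irf2 regions were found in at least 2 libraries, against 8 in adult microglia. This number fell to 3 without macrophage replicate 1 and to 5 without replicate 2. At Irf2 6 sites were listed in at least 2 macrophage libraries and in no microglia library, and 0 in the reverse direction, while over all sites the reverse was the more frequent, with 12.9% against 5.14%. The 6 sites became 1 without macrophage replicate 1, 2 without replicate 2 and 5 without replicate 3 (all sites: 0.949%, 0.974% and 5.20%), so most of them rest on replicates 1 and 2 together.

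Irf4 (chr13:30749226-30766976, plus strand) held 0, 0, 0 and 1 IRF8 regions at P9, 1, 1 and 1 at P14, 0, 2 and 2 in adults and 3, 1 and 1 in peritoneal macrophages. The site 10.7 kb upstream (chr13:30738225-30738880) was in 7 lists, among them all 3 at P14, where it was enriched 8.75, 6.504 and 4.39-fold. In adults it was listed in replicates 2 and 3, at 4.94 and 6.22-fold, by peaks that did not share a base, so that Irf4 had no adult consensus region as defined below. A PU.1 region over it was listed in WT replicate 2 alone (4.75-fold).

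**Figure D2:**
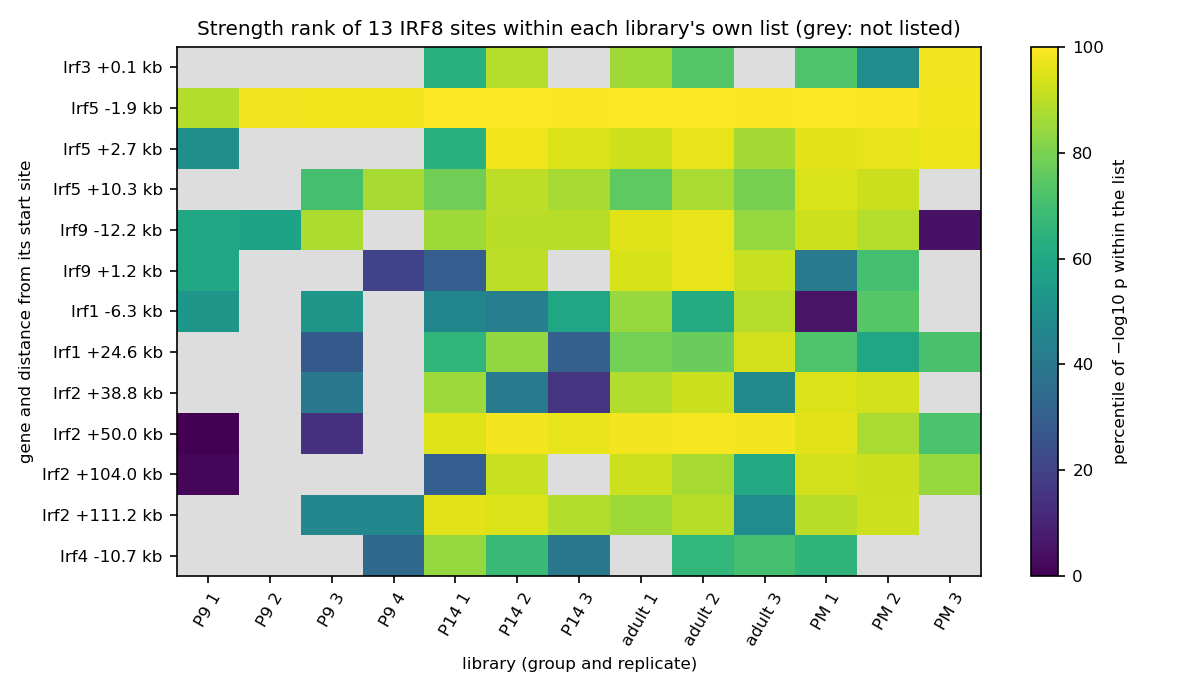
Rank of the 13 recurrent IRF8 sites (rows) within each of the 13 IRF8 lists (columns), as the percentile of the authors' −log10 p in that list; grey marks a site that the list does not hold. Ranks are within a list and lists differ in length, so colours are not comparable between columns; the Irf5 site 1.91 kb upstream lies between the 88.7th and the 99.9th percentile in every column.

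The stage comparison asked how IRF8 occupancy at these genes differed between P9, P14 and adult microglia. A consensus region is a merged region that 2 or more libraries of a group list. Of the 7 genes, 4 (Irf1, Irf2, Irf5 and Irf9) had an IRF8 consensus region at P9, where 6.99% of all protein-coding genes had one. At P14 7 of 7 genes had one (all genes: 32%), in adults 6 of 7, all but Irf4 (50.6%), and in peritoneal macrophages the same number, again without Irf4 (39.9%). The P9 count was 2 without P9 replicate 3, which has the longest P9 list (all genes: 4.75%). All 13 sites of these genes that any P9 library listed were also listed in P14, adult and macrophage libraries, as were 72.6% of the 3219 P9 sites of the series.

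In P14 microglia every library listed more regions than every P9 library at 3 of 7 genes, Irf2, Irf5 and Irf7, where this was so at 25% of the 12507 genes tested. The means were 5.67 ± 2.89 against 1.5 ± 1.29 regions at Irf2, 3.33 ± 0.577 against 1.75 ± 0.5 at Irf5 and 1 against 0 in every library at Irf7 (SD, n = 3 and 4; two-sided exact permutation p = 0.0286, which is the smallest possible, and 0.116 after Benjamini-Hochberg adjustment over all genes). Adult libraries all lay above P9 libraries at 4 of 7 genes, Irf2, Irf3, Irf5 and Irf7 (exact permutation p = 0.0286, adjusted 0.0582), beside 49.6% of 15847 genes, so the share at these genes was close to that of all genes. The adult means were 10.7 ± 3.06 at Irf2, 2.67 ± 0.577 at Irf3, 4.67 ± 0.577 at Irf5 and 1.33 ± 0.577 at Irf7 (SD, n = 3). At an adjusted p under 0.05 no gene of the genome was called in either comparison, while 24.6% and 49.1% of genes had an unadjusted exact permutation p under 0.05. Without adult replicate 1, which listed no region at Irf4, all 7 genes lay above P9 (60.6% of all genes). With windows of 50 kb on each side, 5 genes, Irf2, Irf3, Irf5, Irf7 and Irf9, were called for adult against P9 (adjusted exact permutation p = 0.0461), and so were 62% of all genes tested. These 5 genes had the smallest possible exact permutation p, 0.0286. Their adjusted value was therefore set by how many genes of the genome shared it.

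The direction of these differences depended on the scale. Per 10000 regions of each list 6 of the 7 genes, all but Irf7, had a lower mean at P14 and in adults than at P9. How many of all genes did so was not counted, so the 6 cannot be set against a share. The widest margin was at Irf5, −10.1 regions per 10000 in adults against P9 (exact permutation p = 0.0731 after adjustment over all genes). On this scale all P14 libraries lay above all P9 libraries at 1 of 7 genes (all genes: 17.8%), and all adult libraries at 1 (37.2%). With every list cut to its strongest regions at the length of the shortest, 0 of 7 genes lay above P9 in adults (all genes: 1.77%) and 1 at P14 (1.15%).

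**Figure D3:**
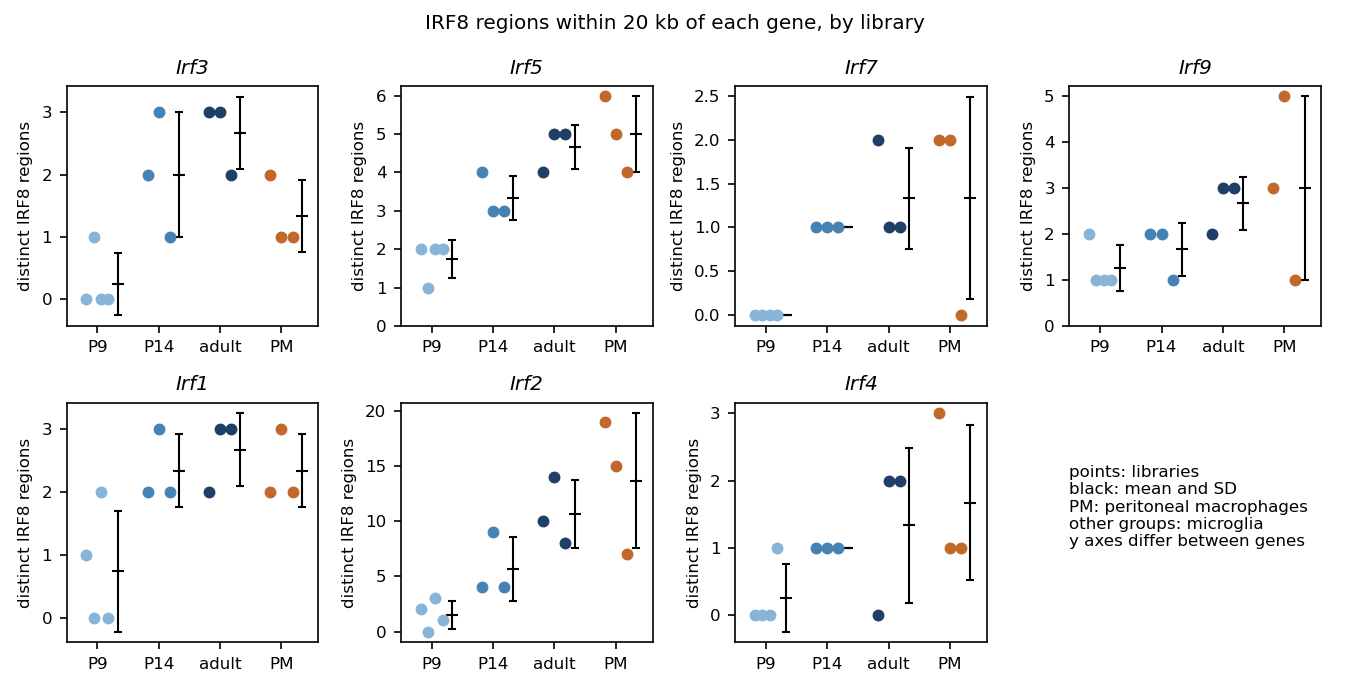
Distinct IRF8 regions (y axis) within 20 kb of each of the 7 genes in the 13 IRF8 libraries. Points are libraries and black marks are means with SD; the P14 libraries lie above all P9 libraries at Irf2, Irf5 and Irf7, and PM stands for peritoneal macrophages.

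**Figure D4:**
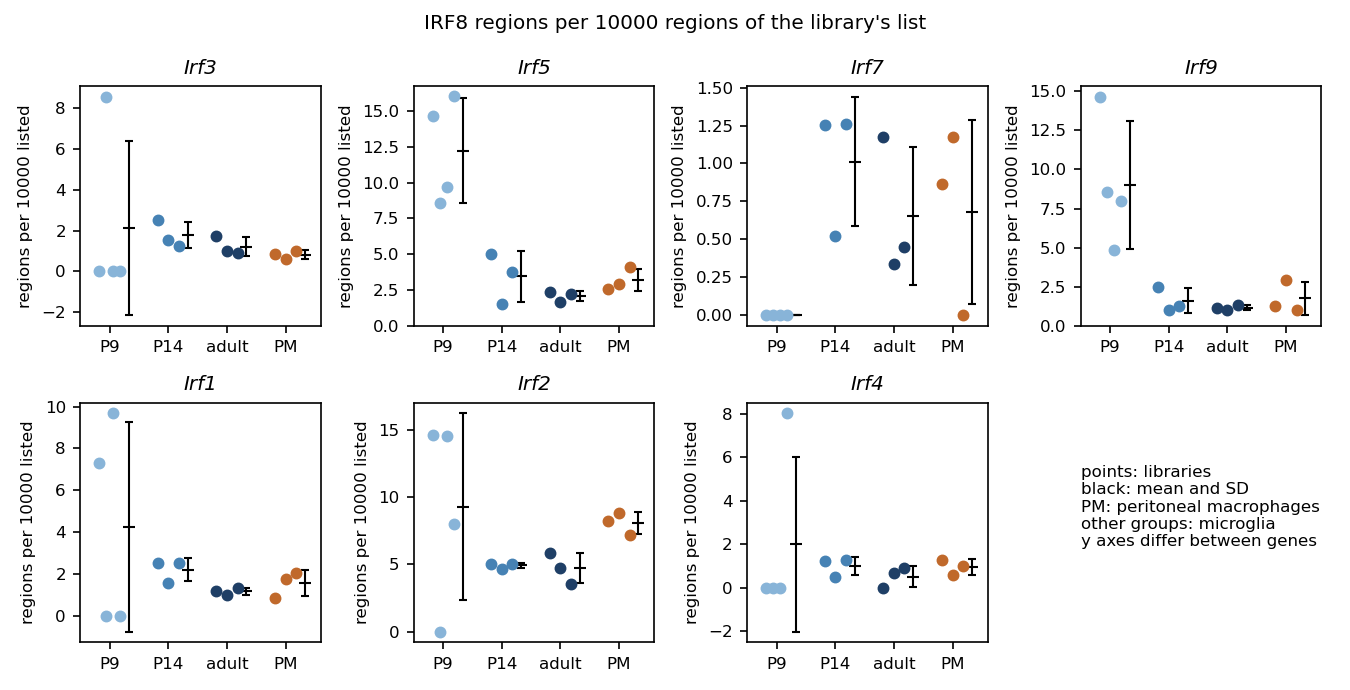
The same libraries with the region number divided by the length of the library's list, as regions per 10000 listed (y axis). On this scale the P9 mean lies above the P14 and adult means at all genes but Irf7, where it is 0.

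Adult and P14 libraries overlapped at each of the 7 genes (0 of 7, beside 7.82% of 16422 genes with all adult libraries higher and 0.0244% with all lower). The largest gap in means was at Irf2, 5 regions more in adults (two-sided exact permutation p = 0.2, with 0.1 the smallest possible). The count was 3 without adult replicate 1 (all genes: 17.5%) and 1 without adult replicate 3 (18.7%), P14 replicate 1 (8.62%) or P14 replicate 2 (27.3%). The tissue comparison between adult microglia and peritoneal macrophages also gave 0 of 7, beside 9.09% of 17479 genes with all adult libraries higher and 1.45% with all lower. Irf2 had 13.7 ± 6.11 regions in macrophages (SD, n = 3; exact permutation p = 0.6) and Irf3 1.33 ± 0.577 (exact permutation p = 0.2). The labels place replicates 1 and 2 of both groups in batch 1 and replicate 3 in batch 2. Adult minus macrophage was 1.5 regions in batch 1 and 1 in batch 2 at Irf3, but −5 and 1 at Irf2, −1 and 1 at Irf4, −1 and 1 at Irf5, −0.5 and 1 at Irf7, −1.5 and 2 at Irf9, and 0 and 1 at Irf1.

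Adult IRF8 consensus regions at these genes numbered 20, and 12 of them (60%) overlapped a WT PU.1 consensus region, beside 27.04% of all 16935 adult regions. H3K27ac lay over 17 (85%, all: 81.8%) and H3K4me1 over 19 (95%, all: 91.3%). The regions at these genes were wide, with a median of 1722 bp against 1085 bp for all adult regions, and the part of width in these shares was not tested. The composite letters were found anywhere in 10 of the 20 (50%, all: 24.1%), but within 100 bp of the centre in 1 (5%, all: 6.28%). For the interferon-response letters the numbers were 9 (45%, all: 20.3%) and 0 (all: 4.20%).

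Between genotypes the question was whether regions at these genes were absent without IRF8. Peak lists hold no RNA values, and the loss of IRF8 itself was not checked. A WT consensus region was called lost when neither IRF8KO library had a peak over it. For PU.1, 0 of 14 WT regions at the 7 genes were lost, beside 25.1% of all 5359 WT regions. Among WT regions ranked at or above the median percentile of these 14 (72.4, all: 68.7) the share was 13.9%. In IRF8KO microglia 12 of the 14 were listed in both libraries, and 2 in replicate 1 alone, an intronic Irf2 region (chr8:46792866-46793146) and the region 20.01 kb downstream of Irf3 (chr7:45017429-45017883). None of 13 IRF8KO PU.1 regions was absent from both WT libraries (all: 16.5%; at or above the median rank: 7.03%). A PU.1 consensus region was present at 6 of 7 genes in WT, all but Irf7 (all genes: 22.4%), and at 7 of 7 in IRF8KO microglia (20.9%). Lost regions numbered 2 of 14 with IRF8KO replicate 1 left out, 1 of 15 without WT replicate 1 and 5 of 21 without WT replicate 2. The shares of all regions were 37.4%, 47.7% and 58.6%. Without 1 WT library, all regions of the other were counted.

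For H3K27ac, 3 of 33 WT regions were lost (9.09%), beside 34% of all 36697 and 11.2% of those ranked at or above the median percentile of these 33 (83.0, all: 66.9). The lost regions were 2 low-ranked ones upstream of Irf2 (mean percentile 20.9 and 28.7) and the promoter region shared by Irf3 and Bcl2l12 (56.5). All 3 ranked below the median of 83.0, so none of them falls in the rank range of the 11.2%. The 2 regions upstream of Irf2 lay 17.1 kb away (chr8:46722246-46722981, 4.01 and 3.13-fold in WT) and 6.91 kb away (chr8:46732526-46733116, 3.70 and 3.93-fold). The Irf3 promoter region (chr7:44997244-44998667) was enriched 6.48 and 3.82-fold in WT, and PU.1 was listed there in both IRF8KO libraries. Both regions over the recurrent IRF8 sites of Irf1 (6.13 and 5.11-fold, and 5.81 and 3.44-fold in WT) were absent from IRF8KO replicate 1 and present in replicate 2. The Irf7 promoter region (3.13 and 3.45-fold in WT) was likewise listed in IRF8KO replicate 2 alone, at 6.23-fold. At Irf5 the upstream region was listed in all 4 libraries, with 10.3 and 7.55-fold in WT and 4.37 and 8.62-fold in IRF8KO microglia. So was the Psme2 and Rnf31 region at Irf9, with 11.6 and 8.97-fold in WT and 5.26 and 5.27-fold in IRF8KO. Changes of fold over all H3K27ac regions were not counted, so these values have no share to be set beside. IRF8KO replicate 2 had 8.57 M fragments, the fewest of the H3K27ac libraries, and 17 of 33 regions were absent from it, against 6 absent from replicate 1. Leaving out a library raised the number lost to 6 of 33 without IRF8KO replicate 2 and 17 of 33 without IRF8KO replicate 1. It was 14 of 47 without WT replicate 1 and 21 of 61 without WT replicate 2. Each is below the share of all regions under the same rule (37.3%, 72.9%, 59.5% and 54.5%). With only peaks of −log10 p of at least 10, 10 of 19 regions were lost (52.6%), close to the share of all regions under that threshold (50.7%). No IRF8KO H3K27ac region of 13 was absent from WT (all: 10.9%; at or above the median rank: 4.27%). Without IRF8KO replicate 2 this became 13 of 53 (all: 55.9%), without IRF8KO replicate 1 3 of 28 (55.5%), without WT replicate 1 1 of 13 (17.6%) and without WT replicate 2 0 of 13 (14.1%). H3K27ac consensus regions were present at 7 of 7 genes in WT (all genes: 61.7%) and at 6 of 7, all but Irf3, in IRF8KO microglia (30.1%). Over the 6 microglial marker genes the H3K27ac consensus regions numbered 42 in WT, at all 6 genes, and 17 in IRF8KO, at 5 genes, all but Sall1. The part of this difference in the values at the 7 genes was not tested.

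For H3K4me1, 1 of 35 WT regions was lost (all: 13%; at or above the median rank: 2.95%). It lies 11.2 kb upstream of Irf4 (chr13:30736157-30739955), holds the recurrent IRF8 site printed above and was enriched 2.71 and 2.17-fold in WT. Its mean percentile, 71.3, was below the median of the 35 regions, 82.1. Gained regions were 2 of 37 (all: 23.8%, at or above the median rank: 2.98%). Their mean percentiles, 43.1 and 15.2, were below the median of the 37 regions, 84.8. The first was centred in an intron of Tnpo3, 31.2 kb downstream of the Irf5 start (chr6:29556356-29559304, 2.34 and 1.87-fold in IRF8KO). The second covers the start of Rec8, 14.7 kb downstream of the Irf9 start (chr14:55616538-55620079, 2.04 and 1.72-fold). Lost regions numbered 4 of 46 without WT replicate 1 (all: 44.1%) and 4 of 43 without WT replicate 2 (33.0%). They numbered 3 of 35 without IRF8KO replicate 1 (19.0%) and 2 of 35 without IRF8KO replicate 2 (24.7%). Gained regions numbered 13 of 55 without IRF8KO replicate 1 (all: 56.0%), 10 of 56 without IRF8KO replicate 2 (41.7%), 4 of 37 without WT replicate 1 (35.9%) and 5 of 37 without WT replicate 2 (32.6%). H3K4me1 consensus regions were present at 7 of 7 genes in both genotypes (all genes: 79.6% in WT and 82.1% in IRF8KO). Over the marker genes the H3K4me1 consensus regions numbered 20 in WT and 24 in IRF8KO for the 6 microglial genes. For the 3 neuronal genes they numbered 14 and 53, with 6 and 39 at Rbfox3, 4 and 9 at Syt1 and 4 and 5 at Snap25. Astrocyte genes held 10 and 10, oligodendrocyte genes 13 and 18, and T and B cell genes 5 and 11. The part of other cells in the H3K4me1 regions gained at the 7 genes was not tested.

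**Figure D5:**
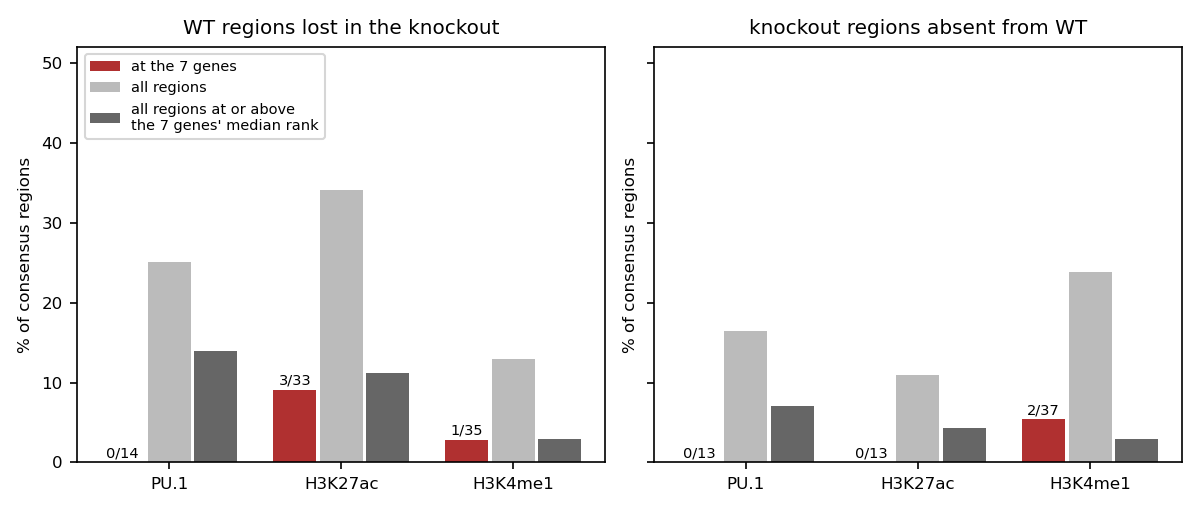
Consensus regions of WT microglia lost in IRF8KO (left) and of IRF8KO microglia absent from WT (right), in percent of regions (y axis) for PU.1, H3K27ac and H3K4me1. Red bars are the regions of every rank at the 7 genes with their counts, and light grey bars are all regions. Dark grey bars are only the regions at or above the median rank of those at the 7 genes. For PU.1 0 of 14 were lost.

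A list of 23 other genes of interferon signalling (receptors, kinases, transcription factors, sensors, adaptors, inhibitors and IRF2-binding proteins) was set beside them. IRF8 consensus regions were present at 4 of 23 at P9 (Ifnar1, Ifnar2, Ifngr2 and Tyk2, which encode interferon receptor chains and a receptor kinase), 18 at P14, 21 in adults and 21 in peritoneal macrophages. Over all genes the shares were 6.99%, 32%, 50.6% and 39.9% in the same order. All P14 libraries lay above all P9 libraries at 13 of the 20 tested (all genes: 25%), and all adult above all P9 libraries at 20 of 23 (49.6%), with an unadjusted exact permutation p under 0.05 at the same numbers of genes and 0 called after adjustment. All adult libraries lay above all P14 libraries at 7 of 23 (all genes: 7.82%) and above all macrophage libraries at 4 of 23 (9.09%), against 0 of the 7 genes in both. The median difference of P14 minus P9 was 1.67 regions for the list, 1.58 for the 7 genes and 0.75 for all genes tested. For adult minus P9 these medians were 2.67, 1.92 and 1.33 regions, for adult minus P14 1.33, 0.667 and 0.667, and for adult minus macrophages 1.33, −0.333 and 0.333. WT PU.1 consensus regions were present at 12 of 23 (all genes: 22.4%).

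In the same family, Irf8 itself held 0 IRF8 regions in the 4 P9 libraries, 1, 5 and 1 at P14, 6, 5 and 3 in adults and 3, 1 and 1 in peritoneal macrophages. By the smallest mean absolute difference in log2(1 + regions) over the 25 lists, the gene most like Irf1 was Sgsm2 (0.168, median over all genes 1.04), that most like Irf5 was Zfp658 (0.311, median 1.42) and that most like Irf9 was Acox3 (0.209, median 0.982). For Irf2 it was Rbm47 (0.338), for Irf3 Card10 (0.213), for Irf4 Plekhh1 (0.269) and for Irf7 Bbof1 (0.18).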

How the data were processed

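The members and the gene lists were chosen with earlier results of these data known. Groups follow the titles, although the macrophage libraries carry microglia as their source. Per the labels, 4 of 7 P9 and 2 of 3 knockout H3K27ac libraries were provided, and how these were selected is not stated there. Cells for transcription factors were fixed in 1% formaldehyde for 10 min, and reads were pairs of 35 nt, per the labels' protocols. The submitters' processing notes name mm10, Trim Galore, Bowtie2, deepTools and MACS2. Peaks were called by the authors per library with MACS 2.2.7.1 (IRF8, PU.1) or 2.2.6 (marks), with duplicates kept and the larger dataset scaled down, per the file headers. The q-value threshold was 0.01, or 0.05 for PU.1 replicate 2, which also had another control; H3K4me1 used a p-value of 0.01 and broad calling. The deposited lists give pileup signal, fold enrichment as a ratio and −log10 p-values, used to describe or rank peaks within a list and, for PU.1, set side by side in libraries with the same control.

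Each chromosome, start and end was counted 1 time, since a list repeats a region for each summit. Overlap was at least 1 bp. Named genes are the 7 members, the family member Irf8, the pathway list, genes whose start lies in a named region and, for each member, the protein-coding gene most alike over the 25 lists. Gm12216 and Tnpo3, whose introns hold a named site or region, were named outside this rule after the values were seen. The same holds for the markers Sall1, Rbfox3, Syt1 and Snap25. Some genes that the rule names are not reported here. Recurrence in 7 lists, the reach of 200 bp around the summits of these sites and the printed stretches were chosen after the values were seen. So were the comparison of site sharing, its repeat without each macrophage library and the pairs of PU.1 libraries. Per-gene tests were exact permutation tests over libraries on all protein-coding genes with Benjamini-Hochberg adjustment (Python 3.11.15, numpy 2.4.6, pandas 2.3.3), tested on simulated data. Alternatives changed the window, the peak threshold, the consensus rule, list length, scaling and the libraries used. Intervals on read counts cannot be given, since the lists hold no counts.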

Additional observations from a re-analysis of the deposited data

Results flagged for a closer look

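Among the 4 P9 libraries, replicate 2 was the only one with a region at Irf3 (1, the others 0) and replicate 4 the only one at Irf4 (1, the others 0). At Irf5 replicate 2 held 1 region and the others 2, and at Irf9 replicate 1 held 2 and the others 1. Each of these libraries stood apart from 3 tied ones by the whole range of its group. The counts are whole numbers from 0 to 2, so 1 region is enough to set a library apart, and chance sets about 1 in 20 groups apart by this measure when values are continuous. The measure was applied to 9 quantities, the count at each of the 7 genes and their sum, raw and per 10000 regions of the list, and 4 met it.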

How the results depend on the processing

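The cause of a change was not tested unless the setting itself removes regions or libraries. Shares over all genes or regions under the same setting follow each count in parentheses. Genes with an IRF8 consensus region at P9 numbered 2 with a −log10 p of at least 10 (3.47%) and 1 with a peak in all libraries (1.99%). At equal list length 3 genes had one at P14 (5.31%), 3 in adults (5.41%) and 1 in peritoneal macrophages (4.38%). For PU.1, 6 of 22 regions were lost with a peak in at least 1 library (62.6%) and 2 of 14 by absence from the other consensus (48.0%), while 3 of 19 (62.4%) and 1 of 13 (39.1%) were gained under these rules, 1 of 14 at 50 kb (16.5%) and 1 of 13 at equal list length (17.7%). For H3K27ac, 1 of 19 was lost with the gene body only (34%), 5 of 45 at 50 kb (34%), 10 of 19 at a −log10 p of at least 10 (50.7%), 27 of 67 with a peak in at least 1 library (63.7%) and 19 of 33 by absence from the other consensus (78.4%). Under the last 2 rules 16 of 66 (60.3%) and 1 of 13 (19.7%) were gained. For H3K4me1, 0 of 18 were lost with the gene body (13%), 4 of 48 with at least 1 library (47.0%) and 3 of 35 by the other consensus (30.3%). Gained were 0 of 19 with the gene body (23.8%), 10 of 67 at 50 kb (23.8%), 0 of 31 at equal length (17.3%), 16 of 58 with at least 1 library (58.6%) and 7 of 37 by the other consensus (44.4%). With all PU.1 lists held to a q-value of 0.01, chosen after seeing the data, 0 of 14 were lost (25.2%) and 0 of 13 gained (16.7%). Genes with all P14 above all P9 libraries numbered 1 at equal length (1.15%) and 1 per 10000 (17.8%), and adult above P9 0 (1.77%) and 1 (37.2%). Adult above P14 was 1 with the gene body (5.9995%), 1 at 50 kb (10.2%) and 1 at a −log10 p of at least 10 (5.03%), and adult above macrophages 2 at that threshold (9.68%) and 1 at equal length (7.56%). In 20 adult regions the composite letters were found in 10 whole regions (24.1%) and 2 summit windows (3.12%), and the interferon-response letters in 9 (20.3%) and 1 (3.01%).

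Differences are listed here only for genes whose sign changed from the main setting. A gene that is not named can differ as much or more. Per 10000 listed regions, P14 minus P9 was −2.05 at Irf1, −4.37 at Irf2, −0.363 at Irf3, −0.989 at Irf4, −8.77 at Irf5 and −7.41 at Irf9. Adult minus P9 was −3.07, −4.57, −0.919, −1.48, −10.1 and −7.84 at the same genes. Adult minus P14 was −1.02, −0.198, −0.557, −0.49, −1.37, −0.36 and −0.43 at Irf1, Irf2, Irf3, Irf4, Irf5, Irf7 and Irf9, and adult minus macrophages −0.383 at Irf1. At equal length P14 minus P9 was −0.5 at Irf1, −0.25 at Irf4 and −0.583 at Irf9, adult minus P9 was −0.5 at Irf1, −0.25 at Irf3, −0.25 at Irf4 and −0.417 at Irf5, and adult minus P14 was −0.667 at Irf3 and −0.667 at Irf4. At a −log10 p of at least 10 adult minus P14 was −0.333 at Irf3, and adult minus macrophages 0.333 at Irf5 and 0.667 at Irf9. Adult minus macrophages was 1 at Irf5 and 0.667 at Irf9 with the gene body, and 1.33 at Irf9 with 50 kb. With 1 library left out it ranged up to 0.333 at Irf4 (without adult replicate 1 or macrophage replicate 1), from −0.833 to 0.167 at Irf5 (above 0 without macrophage replicate 1) and from −1.33 to 0.667 at Irf9 (above 0 without macrophage replicate 2). At 50 kb the exact permutation p for adult against P9 was 0.0286 at Irf2, Irf3, Irf5, Irf7 and Irf9, and with an adjusted p of 0.0461 these 5 genes and 62% of all genes were called. Of 378 alternative values of single genes 334 were counted as keeping their direction and side of the threshold. Another 39 changed direction, 20 of them under the division by list length. Where either value was 0, no change of direction could be counted. This holds at Irf7 for adult minus macrophages, 0 in the main setting, whose alternatives stand among the 334.

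Leaving out 1 library gave 2 to 4 genes with a consensus region at P9, 6 to 7 at P14, 6 to 6 in adults and 5 to 6 in macrophages. PU.1 regions lost ranged from 0 to 5 and gained from 0 to 2, H3K27ac from 6 to 21 and 0 to 13, and H3K4me1 from 2 to 4 and 4 to 13. Genes above P9 numbered 3 to 4 at P14 and 4 to 7 in adults, and adult libraries lay above P14 at 0 to 3 and above macrophages at 0 to 1.

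Replicate numbers are shared between groups, but the labels do not say that they pair libraries. With the replicate block, the count of regions lost and gained in same-numbered libraries was 0 and 0 for PU.1 (all regions: 25.6% and 17.1%), 3 and 0 for H3K27ac (36.0% and 11.8%) and 1 and 3 for H3K4me1 (14.3% and 25.8%). With replicates 1 to 3 only, all first-group libraries lay above all second-group libraries at 4, 4, 0 and 0 genes. The comparisons were P14 and adult against P9, and adult against P14 and against macrophages (all genes: 26.3%, 50.4%, 7.82% and 9.09%). Permuted within replicate numbers, the smallest exact permutation p was 0.25. The lists hold no read counts, so depth limits what a missing region shows: absence from a list is not absence of binding.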
